A study of Bos taurus with 42 samples.

Results

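*PTGDS* and *SLC6A20* are genes known for their expression in the leptomeninges, the thin membranes that cover the brain. They were followed here across 3 fetal tissues, 2 maternal diets and each of the cerebrum libraries of a bovine study. *PTGDS* encodes lipocalin-type prostaglandin D synthase, which makes prostaglandin D2 and is also secreted as a carrier of small lipophilic molecules. *SLC6A20* encodes a sodium-dependent transporter of proline and related imino acids. The meninges form from mesenchyme around the neural tube, and in adult mammals their fibroblasts and arachnoid cells are a main source of *PTGDS* in the brain, beside the choroid plexus and oligodendrocytes. *PTGDS* is also expressed outside the nervous system, and *SLC6A20* is known from kidney and intestine. The members were the rows of the count table whose Ensembl identifiers the study's tables pair with these symbols, ENSBTAG00000015074 for *PTGDS* and ENSBTAG00000031340 for *SLC6A20*. They make up 2 of the 22,664 genes of the table.

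RNA-Seq counts covered 42 libraries. Each of 14 fetuses, taken at day 50 of gestation, gave 1 library of cerebrum, 1 of liver and 1 of hind limb muscle. All dams were crossbred heifers inseminated with semen of the same bull, and the diets began at breeding. Dams of the 7 control (CON) fetuses were fed their full requirement, and dams of the 7 restricted (RES) fetuses were fed 60% of the CON intake. CON held 6 males and 1 female, and RES held 5 males and 2 females. The values are whole reads per gene as deposited, and the tissues are bulk samples, in which fewer cells of a type and less RNA per cell cannot be told apart. Cerebrum libraries held 4,145,093 to 7,576,159 counts, liver libraries 6,658,218 to 12,741,299 and muscle libraries 5,384,018 to 7,592,149. The labels name no batch.

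The tissue labels were checked against marker lists. All 10 neuron genes were higher in the cerebrum than in the liver and in muscle by edgeR's quasi-likelihood test at an adjusted *p* under 0.05, as were 45.2% and 35.9% of all 15,972 genes tested. All 6 hepatocyte genes were lower in the cerebrum and in muscle than in the liver, beside 38.5% and 36.6% of all genes. All 7 genes of skin, cartilage and muscle were higher in muscle than in the liver and the cerebrum, beside 45.5% and 32.2%. Some list genes passed the low count filter only through the tissue where they are high, so their calls were no separate check. *MYOD1*, *MYOG* and *ACAN* had a median of 0 CPM in the cerebrum and the liver, and *NEUROD2* in the liver and muscle. Further list genes had medians under 1 CPM outside their own tissue. Among them were *ELAVL4*, *NEUROD6*, *TBR1* and *SLC17A6* of the neuron genes and *FGA* and *APOA2* of the hepatocyte genes. The meningeal label of *PTGDS* and *SLC6A20* did not mark the cerebrum in these data, since *PTGDS* had its lowest level there and *SLC6A20* was at a similar level in muscle.

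Several libraries stood apart. The cerebrum of RES fetus 1 had the most counts of the 14 cerebrum libraries and the most genes detected (17,938). It held the highest value of the 14 for 3398 of the 15,151 genes tested in the cerebrum (22.4%) and the lowest for 4022 (26.5%). Named mitochondrial genes took 14.7% of its counts, against 2.73% to 6.89% in the other 13 cerebrum libraries, and its 10 most abundant genes took 15.1%. The cerebrum of CON fetus 23 held the highest value for 3352 genes (22.1%) and the lowest for 2117 (14.0%). In the liver, 12 named genes of the mitochondrial genome took 67.7% of the counts in RES fetus 1 and 44.9% in CON fetus 2, against a lowest share of 4.04%. Their share was also high in RES fetus 6 (35.6%) and RES fetus 33 (30.5%). Results that rest on fetus 1 are therefore given with and without it, and relations across fetuses without the 2 farthest fetuses.

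*PTGDS* was highest in muscle, lower in the liver and lowest in the cerebrum. Levels are given in CPM, the count of a gene relative to the library total, with TMM scaling over all 42 libraries where tissues are compared, and with TMM scaling within a tissue elsewhere. In muscle, *PTGDS* had between 325 and 574 counts (median 445.0) and a mean log2 CPM of 5.71 ± 0.22 (SD, *n* = 14). In the liver it had between 80 and 198 counts (median 132.5) and a mean log2 CPM of 4.68 ± 0.65 (SD, *n* = 14). In the cerebrum it had between 1 and 108 counts (median 12.5) and a mean log2 CPM of 0.88 ± 1.22 (SD, *n* = 14). The spread was thus narrow in muscle and wide in the cerebrum, and within each of the 14 fetuses the cerebrum held less *PTGDS* than either other tissue.

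With edgeR on all 42 libraries, with sex and diet as covariates, *PTGDS* was lower in the cerebrum than in the liver (log2 difference −3.42, SE 0.30, adjusted *p* = 5.0e-14). It was also lower in the cerebrum than in muscle (log2 difference −4.40, SE 0.31, adjusted *p* = 2.2e-16). Of the 15,972 genes tested, 38.5% were called lower in the cerebrum than in the liver and 32.2% lower than in muscle, so a call in this direction was common. *PTGDS* was higher in muscle than in the liver by 0.99 (SE 0.26, adjusted *p* = 6.65e-04), a direction called for 45.5% of all genes, with 36.6% called lower. Paired over fetuses, the cerebrum minus liver difference was −3.80 ± 1.13 (SD, *n* = 14) in log2 CPM, and all 14 fetuses had less in the cerebrum (paired permutation test over all sign flips, two-sided, *p* = 0.000122, the smallest this test can give, adjusted over 6 comparisons *p* = 0.000366). The muscle minus liver difference was 1.04 ± 0.52 (SD, *n* = 14), higher in muscle in 13 of 14 fetuses (permutation *p* = 0.000244, adjusted *p* = 0.000366). The exception was fetus 1, whose liver value was the highest of the 14 with TMM.

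*SLC6A20* was found at low counts in every tissue. In the cerebrum it had between 2 and 124 counts (median 7.0) and a mean log2 CPM of 0.46 ± 1.36 (SD, *n* = 14). In muscle it had between 5 and 29 counts (median 11.5) and a mean log2 CPM of 0.68 ± 0.48 (SD, *n* = 14). In the liver it had between 0 and 9 counts (median 2.0) and a mean log2 CPM of −0.88 ± 1.17 (SD, *n* = 14). Liver libraries were the lowest as a group, and the ranges of all 3 tissues overlapped. No count was found in the livers of CON fetus 68, CON fetus 73 and RES fetus 70, which allows up to 0.413, 0.399 and 0.419 CPM (3 counts of each total, counting error only).

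*SLC6A20* was higher in the cerebrum than in the liver by 1.85 (SE 0.47, edgeR adjusted *p* = 4.02e-04). This direction was called for 45.2% of all genes. Without fetus 1 the difference was 1.10 (SE 0.39, adjusted *p* = 0.00869). Paired over all fetuses, the cerebrum minus liver difference was 1.34 ± 1.28 (SD, *n* = 14) in log2 CPM (paired permutation *p* = 0.00146). Of the 14 fetuses, 11 had more in the cerebrum and 3 had more in the liver. Muscle was higher than the liver by 1.64 (SE 0.47, adjusted *p* = 0.00172), and 13 of 14 fetuses had more in muscle (paired permutation *p* = 0.000244). The cerebrum and muscle were neighbours that did not differ beyond their spread. Their edgeR difference, cerebrum minus muscle, was 0.22 (SE 0.42, adjusted *p* = 0.665) with all fetuses and −0.52 (SE 0.33, adjusted *p* = 0.158) without fetus 1, beside 35.9% of all genes called higher in the cerebrum. The paired difference in log2 CPM had the other sign with all fetuses, −0.22 ± 1.62 (SD, *n* = 14, paired permutation *p* = 0.639). Of the 14 fetuses, 6 had more in the cerebrum and 8 had more in muscle.

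**Figure D1:**
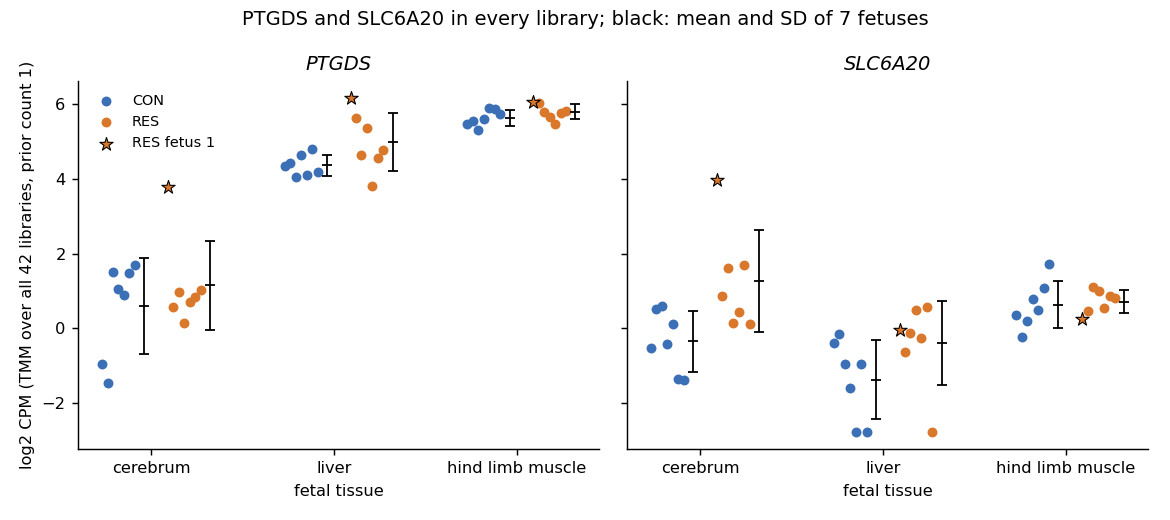
Level of *PTGDS* (left) and *SLC6A20* (right) in each of the 42 libraries, as log2 CPM with TMM over all libraries, by tissue and diet (blue CON, orange RES, star RES fetus 1), with the mean and SD of each group of 7 in black. *PTGDS* rises from the cerebrum to the liver and to muscle, *SLC6A20* is lowest in the liver, and the star is far above all other cerebrum points in both panels.

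The size of differences that involve the liver depended on the scaling. With library totals in place of TMM, the median difference of all genes moved from 0.17 to 1.199 for the cerebrum against the liver, and from 0.21 to 1.23 for muscle against the liver. *PTGDS* then had a cerebrum minus liver difference of −2.29 and a muscle minus liver difference of 2.13. The *SLC6A20* differences became 2.87 for the cerebrum minus the liver and 2.74 for muscle minus the liver. Of the called genes, 53.99% were higher in the cerebrum than in the liver with TMM and 76.8% with library totals, and 55.4% and 80.9% were higher in muscle than in the liver. Relative to the median of all genes, the cerebrum minus liver difference of *PTGDS* was −3.59 with TMM and −3.48 with library totals. That of *SLC6A20* was 1.68 with TMM and 1.67 with library totals.

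The cerebrum libraries were then taken one by one. In CON, *PTGDS* had 2 counts in fetus 2, 1 in fetus 23, 16 in fetus 46, 16 in fetus 54, 13 in fetus 68, 22 in fetus 69 and 26 in fetus 73. In RES, it had 108 counts in fetus 1, 8 in fetus 6, 10 in fetus 25, 6 in fetus 33, 11 in fetus 52, 12 in fetus 55 and 14 in fetus 70. RES fetus 1 stood above all others, CON fetuses 2 and 23 were near the limit of detection, and the other 11 libraries held between 6 and 26 counts.

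For *SLC6A20*, the CON counts were 3 in fetus 2, 6 in fetus 23, 8 in fetus 46, 5 in fetus 54, 7 in fetus 68, 2 in fetus 69 and 2 in fetus 73. The RES counts were 124 in fetus 1, 10 in fetus 6, 16 in fetus 25, 6 in fetus 33, 9 in fetus 52, 23 in fetus 55 and 7 in fetus 70. RES fetus 1 was again the highest, but the libraries lowest in *SLC6A20*, CON fetuses 69 and 73, were among those highest in *PTGDS*.

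In RES fetus 1, *PTGDS* made up 14.3 CPM of the unscaled library total (exact 95% binomial interval 11.7 to 17.2), against 4.32 (2.82 to 6.33) in CON fetus 73, the next highest. *SLC6A20* made up 16.4 CPM (13.6 to 19.5), against 4.42 (2.80 to 6.64) in RES fetus 55. Neither pair of intervals overlaps, and they cover counting error only. In TMM-scaled CPM, *PTGDS* in RES fetus 1 (17.5) was 4.22 times the next highest library and 8.09 times the median of the other 13. *SLC6A20* (20.1 CPM) was 4.92 times the next highest and 15.9 times that median. On the log2 scale, 268 genes (1.77%) had at least as large a gap between RES fetus 1 and the next highest library as *PTGDS*, and 201 (1.33%) had one as large as *SLC6A20*.

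The SD of log2 CPM over the 14 cerebrum libraries was 1.21 for *PTGDS* and 1.36 for *SLC6A20*, beside a median SD of 0.52 over all genes, which placed them at percentiles 95.03 and 96.8. Without fetus 1 the SDs were 0.91 and 0.95, at percentiles 91.5 and 92.5 beside a median of 0.45. Both genes had low counts, and the part of low counts in this spread was not tested.

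**Figure D2:**
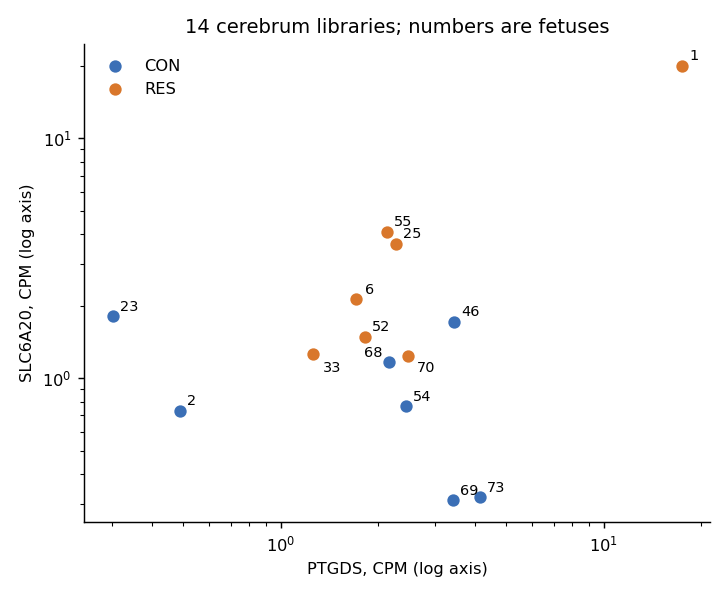
*PTGDS* (horizontal) against *SLC6A20* (vertical) in the 14 cerebrum libraries, both as TMM-scaled CPM on log axes, with the fetus number beside each point (blue CON, orange RES). RES fetus 1 lies alone at 17.5 and 20.1 CPM, and the other 13 points show no upward course.

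Across the 14 cerebrum libraries, the log2 CPM of *PTGDS* and *SLC6A20* gave Pearson's *r* = 0.41 (permutation *p* = 0.142, adjusted over the 3 tissues *p* = 0.325) and Spearman's rho = −0.09 (permutation *p* = 0.761). Without the 2 fetuses farthest from the *PTGDS* median, fetuses 1 and 23, *r* was −0.15. It was −0.21 without fetus 1 alone and 0.51 without fetus 23 alone, so the positive value rested on fetus 1. Within CON *r* was −0.47 (exact permutation *p* = 0.277, *n* = 7). Within RES it was 0.90 (exact permutation *p* = 0.0306, *n* = 7), and 0.40 without fetus 1 (exact permutation *p* = 0.429, *n* = 6). In the liver *r* was 0.29 (permutation *p* = 0.325) and in muscle 0.30 (permutation *p* = 0.304). In no tissue was a relation of the 2 genes over all 14 fetuses past the threshold.

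Each gene was also compared between tissues over the 14 fetuses, which gave 6 relations. For *PTGDS*, liver and muscle gave *r* = 0.67 (permutation *p* = 0.00764, adjusted *p* = 0.0458) and rho = 0.64 (adjusted *p* = 0.0478), but *r* was 0.42 without fetuses 1 and 6 (permutation *p* = 0.175), so the relation rested in part on them. RES fetus 1 had the highest *PTGDS* of all 14 fetuses in each tissue, with 43.2 CPM in the liver and 84.1 CPM in muscle. In the liver this held with TMM but not on library totals, where it had 13.6 CPM, within the range of the others (8.42 to 22.4). Named mitochondrial genes took 67.7% of the counts of that liver library. For *SLC6A20*, cerebrum and liver gave *r* = 0.51 (permutation *p* = 0.0565, adjusted *p* = 0.145) and rho = 0.70 (adjusted *p* = 0.0382), with *r* = 0.62 without fetuses 1 and 69. The other 4 relations had adjusted *p* values from 0.145 to 0.271.

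Marker lists of other cell types moved with the 2 genes in the cerebrum of RES fetus 1. The list of meningeal fibroblast and arachnoid genes had 9 of its 25 genes with counts under a known symbol. Their summed level was 1079 CPM in RES fetus 1 and between 57.5 and 204.9 CPM (median 119.3) in the other 13, and 6 of the 9 were highest in RES fetus 1. *IGF2*, a growth factor of fetal mesenchyme and the most abundant gene of the list there, had 688.9 CPM against at most 41.9. It does not mark the meninges among these tissues, since its median was 6312 CPM in the liver and 4120 CPM in muscle. By median CPM, only *ZIC1* and *ZIC4* of the 9 genes were highest in the cerebrum. The median of *SLC13A4* was 7.45 CPM in the liver and 1.77 in the cerebrum, and that of *CLDN11* was 6.95 in muscle and 1.32 in the cerebrum. *SLC13A4*, a sulfate transporter, had 145.8 CPM against at most 20.9, and *CLDN11*, a claudin of the arachnoid barrier, had 75.8 against at most 58.6. *ZIC1*, a zinc finger factor of meninges and dorsal neural tissue, was at 36.4 CPM and ranked 12 of 14, while *LAMC3*, a laminin chain, and *CYP1B1* each ranked 4. None of the 9 genes was at 0 in all libraries.

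Genes of connective tissue were also at their highest there. *FMOD*, fibromodulin, had 426.5 CPM in RES fetus 1 and between 1.83 and 20.5 CPM in the other 13. *COL6A1*, a collagen VI chain, had 32.7 CPM against at most 10.8. Among the 7 genes of skin, cartilage and muscle, 6 were highest in RES fetus 1, with a summed level of 250.0 CPM against 12.7 to 40.1. The embryonic myosin gene *MYH3* had 92.8 CPM there against at most 11.6, and the cartilage collagen gene *COL9A1* 109.7 against at most 26.3.

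Choroid plexus genes summed to 7379 CPM in RES fetus 1, against 88.3 to 1560 (median 194.9) in the others. *TTR*, transthyretin, which the choroid plexus and hepatocytes secrete, was the main part of this with 7250 CPM. Of the other choroid plexus genes, *AQP1*, a water channel, had 15.4 CPM against at most 4.31, *OTX2* ranked 11 of 14 and *PRLR* was lowest of the 14. The 6 hepatocyte genes were all highest in RES fetus 1, with 548.7 CPM in sum against 5.11 to 293.8, led by *AHSG* at 278.5 CPM. Red cell genes summed to 331.8 CPM against 6.41 to 107.9, led by alpha globin (*HBA*, whose near-identical copies make its count uncertain) at 232.6 CPM. Endothelial genes summed to 192.6 CPM against 38.9 to 74.7, and microglia and macrophage genes to 62.4 against 5.37 to 24.8.

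The sum of the neuron genes was at its lowest there, with 3210 CPM in RES fetus 1 and between 4638 and 13,971 CPM in the other 13. Of the 10 genes, 4 were lowest in this library, among them *STMN2*, a gene of growing axons, at 1628 CPM against at least 2442. The others were not, and *NEUROD2*, a transcription factor of cortical neurons, had 47.9 CPM beside a median of 29.1 CPM in the others. Neural progenitor genes summed to 218.4 CPM, within the range of the others (200.3 to 413.7). The part that other cell types had in the *PTGDS* and *SLC6A20* values of this library was not tested.

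**Figure D3:**
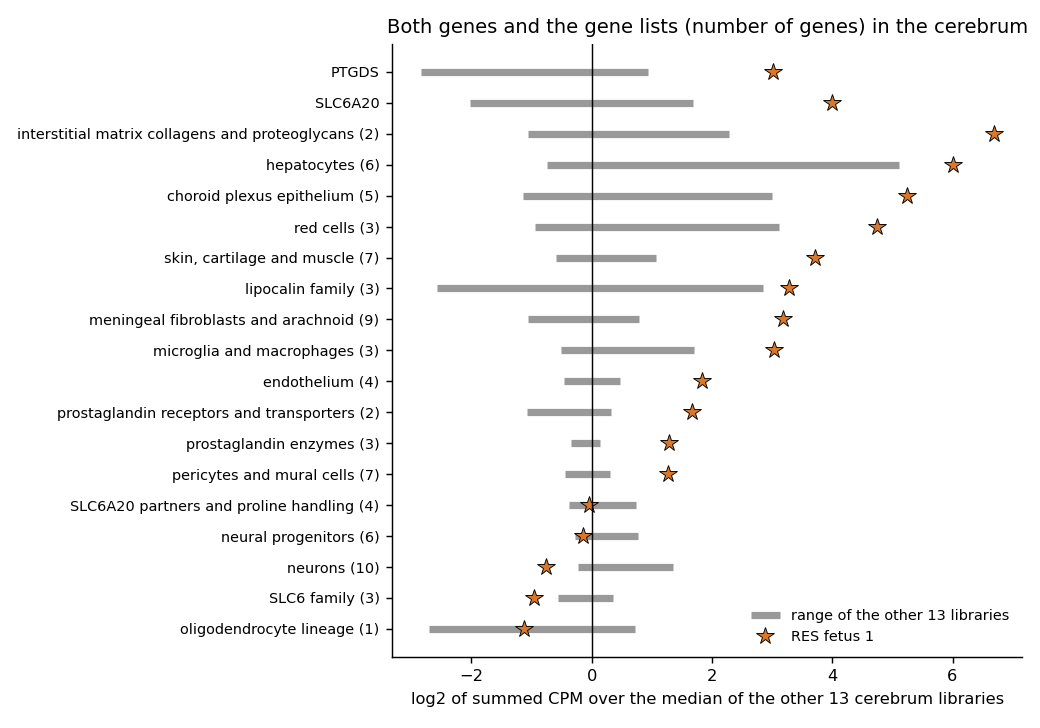
*PTGDS*, *SLC6A20* and the summed CPM of each gene list (number of genes in brackets) in the cerebrum, as log2 over the median of the other 13 libraries; the star is RES fetus 1 and the grey bar spans the lowest to the highest of the other 13. The star lies right of the bar for both genes, and left of it for neurons and the SLC6 family.

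The relation of each gene with the summed cell type lists was computed over the 14 cerebrum libraries for 10 lists with at least 3 genes, 20 relations in all. With meningeal genes, *r* was 0.65 for *PTGDS* (permutation *p* = 0.0275, adjusted *p* = 0.050) and 0.72 for *SLC6A20* (permutation *p* = 0.0143, adjusted *p* = 0.0409), while rho was 0.38 and 0.48 (adjusted *p* = 0.369 and 0.334). Without the 2 farthest fetuses *r* was 0.47 (fetuses 1 and 23, permutation *p* = 0.128) and 0.30 (fetuses 1 and 69, permutation *p* = 0.340). In RES fetus 1, *IGF2*, which does not mark the meninges among these tissues, made up 688.9 of the 1079 CPM of the meningeal sum. Other lists gave values as high. *PTGDS* had *r* = 0.74 with pericyte and mural cell genes (adjusted permutation *p* = 0.0409) and 0.66 with endothelial genes, and *SLC6A20* had 0.75 with endothelial genes and 0.72 with red cell genes (adjusted permutation *p* = 0.0409 for both). *SLC6A20* had its highest value with choroid plexus genes, *r* = 0.77 and rho = 0.73 (permutation *p* = 0.00154 and 0.00375, adjusted *p* = 0.0308 and 0.075), and *r* = 0.54 without fetuses 1 and 69 (permutation *p* = 0.0692). That sum varied mainly through *TTR*, which hepatocytes also secrete. Outside RES fetus 1, *TTR* ran from 14.1 to 1384 CPM, *OTX2* from 58.1 to 157.3 and *MSX1* to at most 15.9. For *PTGDS* and the choroid plexus, *r* was 0.39 and rho 0.06. With neuron genes, *r* was −0.69 for *PTGDS* (adjusted *p* = 0.0435) and turned to 0.23 without fetuses 1 and 23. Without the 2 farthest fetuses, none of the 20 relations had an adjusted *p* under 0.05 (1 had an unadjusted permutation *p* under 0.05, *PTGDS* with hepatocyte genes, *r* = −0.63), whereas 8 of the 20 had one by Pearson's *r* with all fetuses. By Spearman's rho 0 of the 20 had one with all fetuses. In 2 the unadjusted permutation *p* was under 0.05, *SLC6A20* with choroid plexus genes and with hepatocyte genes. With hepatocyte genes *SLC6A20* had *r* = 0.65 (adjusted permutation *p* = 0.0409) and rho = 0.62 (permutation *p* = 0.0197, adjusted *p* = 0.197). That *r* was 0.30 without fetuses 1 and 69 (permutation *p* = 0.336). For *SLC6A20* with the choroid plexus, rho was 0.63 without fetuses 1 and 69.

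In the cerebrum, *PTGDS* ranged from 0.302 to 4.14 CPM (median 2.44) in CON and from 1.26 to 17.5 CPM (median 2.13) in RES. The groups overlapped, and the lowest as well as the highest value without fetus 1 was in CON. The edgeR test with sex as a covariate gave a RES minus CON difference of 0.84 (SE 0.64, adjusted *p* = 0.999), and −0.34 (SE 0.47) without fetus 1, so its direction turned with a single library. The difference of mean log2 CPM was 0.53 (exact permutation test over all 3432 splits, two-sided, *p* = 0.442, adjusted over 6 comparisons *p* = 0.531), and 0.087 without fetus 1 (exact permutation *p* = 0.860).

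*SLC6A20* in the cerebrum ranged from 0.310 to 1.81 CPM (median 0.764) in CON and from 1.24 to 20.1 CPM (median 2.14) in RES. The groups overlapped between 1.24 and 1.81 CPM, with 4 RES libraries above all CON libraries and 5 CON libraries below all RES libraries. The estimate was higher in RES by 2.36 (SE 0.69, unadjusted *p* = 0.00342, edgeR adjusted *p* = 0.999), and by 1.22 (SE 0.49, unadjusted *p* = 0.0232) without fetus 1. The difference of mean log2 CPM was 1.60 (exact permutation *p* = 0.0128, adjusted over 6 comparisons *p* = 0.0769), and 1.15 without fetus 1 (exact permutation *p* = 0.0251). With all fetuses the difference did not pass the adjustment over genes or over the 6 comparisons. It passed the latter without RES fetus 52 (1.75, adjusted exact permutation *p* = 0.0332) and without RES fetus 70 (1.79, adjusted exact permutation *p* = 0.0367). With totals free of named mitochondrial genes, an alternative chosen after seeing the data, it was 1.74 and passed the latter (exact permutation *p* = 0.00524, adjusted *p* = 0.0315). With edgeR, 0 of 15,151 genes (0%) were called in the cerebrum, 386 had an unadjusted *p* under 0.05, and DESeq2 called 0.

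In the liver, *PTGDS* ranged from 10.04 to 16.5 CPM (median 12.0) in CON and from 8.67 to 43.2 CPM (median 17.1) in RES. RES held the lowest value as well as the 4 highest, so the groups overlapped. The estimate was higher in RES by 0.81 (SE 0.28, unadjusted *p* = 0.00964, edgeR adjusted *p* = 0.184). It was 0.54 without fetus 1 (SE 0.24, unadjusted *p* = 0.0391) and 0.21 with library totals in place of TMM (SE 0.26, unadjusted *p* = 0.434). The exact permutation test gave a difference of 0.62 in mean log2 CPM (*p* = 0.0659, adjusted *p* = 0.198). Without RES fetus 52, which had the lowest value, it was 0.81 and passed the adjustment over 6 comparisons (exact permutation *p* = 0.00641, adjusted *p* = 0.0332).

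The mitochondrial share differed widely between liver libraries. The 12 named mitochondrial genes took 4.04% to 44.9% of the counts in CON (median 5.84%) and 4.34% to 67.7% in RES (median 12.6%). *PTGDS* in TMM-scaled log2 CPM gave *r* = 0.73 with this share (permutation *p* = 0.00591, adjusted over 2 scalings *p* = 0.0118) and *r* = 0.75 without fetuses 1 and 2. The latter value still held RES fetuses 6 and 33, with shares of 35.6% and 30.5%. Their *PTGDS* (28.5 and 23.5 CPM) was the next highest after fetus 1. By rank the relation did not pass (rho = 0.45, permutation *p* = 0.106, adjusted *p* = 0.212). On library totals *r* was −0.25 (permutation *p* = 0.397, rho = −0.15). On library totals without the named mitochondrial genes, an alternative chosen after seeing the data, the RES minus CON difference of mean log2 CPM was 0.52 (exact permutation *p* = 0.0577, adjusted over 6 comparisons *p* = 0.173), beside 0.62 with TMM. *SLC6A20* did not pass the filter in the liver, where the difference of mean log2 CPM was 0.88 (exact permutation *p* = 0.112), and 1.23 without RES fetus 70 (adjusted exact permutation *p* = 0.0367). For the liver, 0 of 13,527 genes (0%) were called by edgeR, 3260 had an unadjusted *p* under 0.05, and DESeq2 called 78, *PTGDS* not among them (adjusted *p* = 0.0844).

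**Figure D4:**
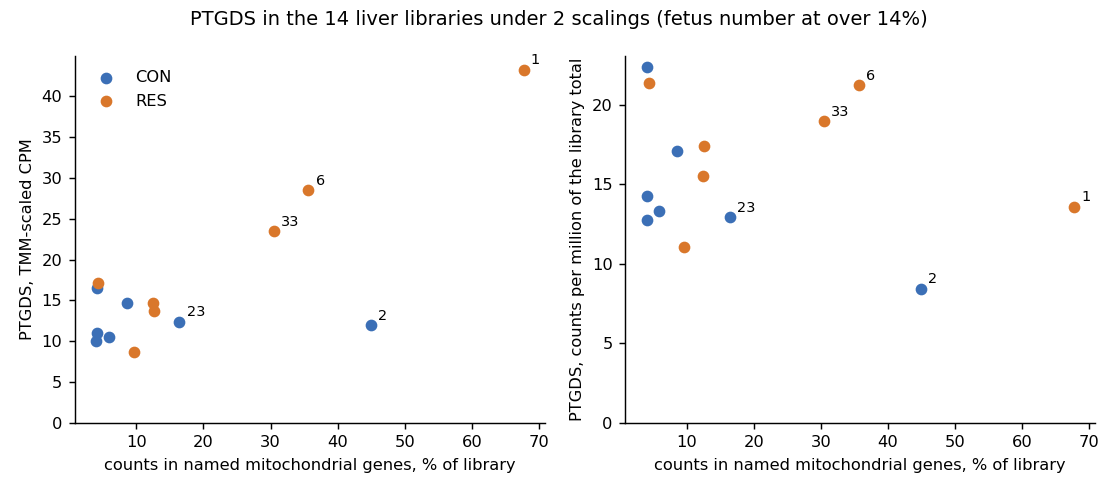
*PTGDS* in the 14 liver libraries against the share of counts in named mitochondrial genes (horizontal, %), as TMM-scaled CPM (left) and as CPM of the unscaled library total (right); blue CON, orange RES, with the fetus number where the share is over 14%. RES fetus 1 is highest at 43.2 CPM on the left and in the middle of the points on the right.

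In muscle, *PTGDS* ranged from 50.5 to 76.7 CPM (median 62.9) in CON and from 56.5 to 84.1 CPM (median 72.2) in RES, with wide overlap. The edgeR difference was 0.14 (SE 0.11, adjusted *p* = 0.660). *SLC6A20* ranged from 0.930 to 4.22 CPM (median 1.65) in CON and from 1.32 to 2.59 CPM (median 2.08) in RES, and the RES range lay inside that of CON. Its edgeR difference was −0.04 (SE 0.32, adjusted *p* = 0.972). In muscle 0 of 14,947 genes (0%) were called by edgeR, 1481 had an unadjusted *p* under 0.05, and DESeq2 called 14.

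**Figure D5:**
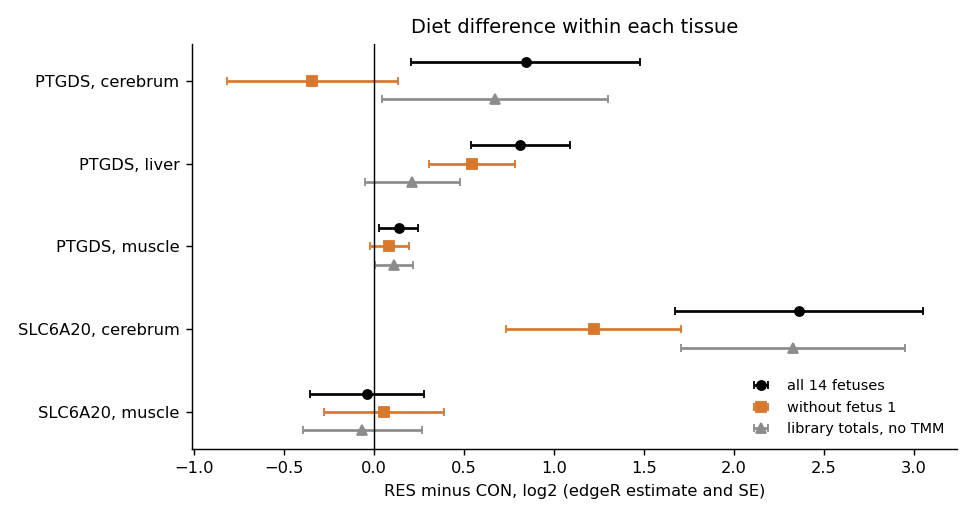
RES minus CON difference of *PTGDS* in each tissue and of *SLC6A20* in the cerebrum and muscle, as the edgeR log2 estimate (points) with its SE (bars), for all 14 fetuses (black), without fetus 1 (orange) and with library totals in place of TMM (grey). *SLC6A20* did not pass the filter in the liver and is not shown there. The cerebrum estimate of *PTGDS* moves from 0.84 to −0.34 without fetus 1, and that of *SLC6A20* from 2.36 to 1.22.

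The diet difference was not shown to differ between tissues for either gene. For *SLC6A20*, the diet difference in the cerebrum exceeded that in muscle by 2.35 (SE 0.75, unadjusted *p* = 0.00334, edgeR adjusted *p* = 0.668), and by 1.26 (SE 0.63, unadjusted *p* = 0.0535) without fetus 1. Its cerebrum minus liver term was 1.08 (SE 0.97, edgeR adjusted *p* = 0.702), and 0.088 without fetus 1. For *PTGDS* the same term was 0.62 (SE 0.56), and the cerebrum minus liver term was 0.02 (SE 0.44), both with an edgeR adjusted *p* that rounds to 1. Without fetus 1 both turned, to −0.44 (SE 0.41) against muscle and −0.83 (SE 0.41, unadjusted *p* = 0.0519, edgeR adjusted *p* = 0.816) against the liver. Over all 15,972 genes, 0 (0%) were called for the cerebrum against the liver and 0 (0%) for the cerebrum against muscle. At an unadjusted *p* under 0.05 there were 1319 and 668 genes, and DESeq2 called 9 and 2.

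No gene of the marker lists was called between the diets in the cerebrum, as no gene was in all. Of the 9 meningeal genes, 8 had a higher estimate in RES, and the median difference was 0.68, beside −0.03 for all genes. Without fetus 1, 5 of 9 had one and the median was 0.21, beside −0.04 for all genes. The median estimate of the 5 choroid plexus genes was 1.35, and 0.32 without fetus 1. The 10 neuron genes had a median of −0.40, and −0.30 without fetus 1. Summed hepatocyte genes ranged from 5.11 to 100.7 CPM in CON and from 6.79 to 548.7 CPM in RES, or to 293.8 without fetus 1. Summed red cell genes ranged from 6.83 to 19.4 CPM in CON and from 6.41 to 331.8 CPM in RES, or to 107.9 without fetus 1. The part of these cells in the diet estimate of *SLC6A20* was not tested.

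Among the genes around *PTGDS* in the prostaglandin pathway, *PLA2G4A* and the receptor gene *TBXA2R* had its order of tissues by mean log2 CPM. They were highest in muscle and lowest in the cerebrum. *PTGIS* was highest in muscle but lowest in the liver, and *PTGES2* and *PTGER3* were highest in the liver. Beside *PTGDS*, 3 of 14 listed enzymes had counts under a known symbol, none of them a cyclooxygenase. *PLA2G4A*, the phospholipase that releases arachidonic acid, was lower in the cerebrum than in the liver (log2 difference −1.58) and than in muscle (−2.36), but the call against the liver was lost with library totals (−0.60, edgeR adjusted *p* = 0.0646). *PTGIS*, prostacyclin synthase, was higher in the cerebrum than in the liver by 1.55 and lower than in muscle (−1.54). *PTGES2*, a prostaglandin E synthase, was lower in the cerebrum than in the liver with TMM (−1.15) but not called with library totals (−0.031, adjusted *p* = 0.851), and its cerebrum minus muscle difference was 0.26 (adjusted *p* = 0.105). With TMM the adjusted *p* of the other 5 differences was under 0.05, near the share of all genes called (13,360 of 15,972 for the cerebrum against the liver and 10,879 against muscle). The list's median was −1.15 for the cerebrum against the liver and −1.54 against muscle, beside 0.17 and 0.06 for all genes.

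Of the receptors, *TBXA2R* for thromboxane A2 was lower in the cerebrum than in the liver (−1.58) and in muscle (−1.98), and *PTGER3* for prostaglandin E2 was not called in any pair of tissues. With library totals the *TBXA2R* difference from the liver was −0.52. Among other lipocalins, *LCN2* (lipocalin 2) and *ORM1* (an acute phase protein) were liver genes, with cerebrum minus liver differences of −6.88 and −12.0. *APOD*, apolipoprotein D, was highest in muscle like *PTGDS*, with a cerebrum minus muscle difference of −2.84 (adjusted *p* = 3.67e-08). Unlike *PTGDS*, it was lowest in the liver, with a mean log2 CPM of −1.04 there and −0.27 in the cerebrum.

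Of the SLC6 family, 3 of 18 listed genes had counts under a symbol, and all 3 were called higher in the cerebrum than in muscle, where *SLC6A20* was not called, beside 35.9% of all genes called in that direction. *SLC6A17*, a vesicular amino acid transporter of neurons, exceeded muscle by 2.07 and the liver by 3.30. *SLC6A6*, the taurine transporter, exceeded them by 0.35 (adjusted *p* = 0.0495, and 0.135 with library totals) and 1.18, and *SLC6A4*, the serotonin transporter, was above muscle by 0.70 and below the liver (−2.07). In RES fetus 1 the family summed to 35.0 CPM, the lowest of the 14 cerebrum libraries (46.2 to 87.5 in the others), opposite to *SLC6A20*.

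The proline synthesis genes *PYCR1* and *ALDH18A1* were lower in the cerebrum than in muscle (−1.33 and −0.74). Against the liver *PYCR1* was lower in the cerebrum (−3.05), while *ALDH18A1* was lower with TMM (−0.97) and turned to 0.079 with library totals (adjusted *p* = 0.658). *SLC38A2*, another transporter that carries proline, was higher in the cerebrum than in the liver by 1.44 and than in muscle by 1.03. Between the diets, 0 of the tested genes of these 5 lists were called in any tissue. In the cerebrum the medians were 0.36 for prostaglandin enzymes, −0.02 for receptors, 1.59 for lipocalins, −0.23 for the SLC6 family and 0.16 for proline handling, beside −0.03 for all genes. Without fetus 1 they were −0.06, −0.54, 1.197, −0.13 and −0.03 in the same order, beside −0.04 for all genes. *LCN2* did not pass the filter in the cerebrum, so the lipocalin median with all fetuses rests on *APOD* and *ORM1* alone. The median of *ORM1* was 0.192 CPM in the cerebrum and 6794 CPM in the liver.

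The genes whose log2 CPM was most like each member over the 14 cerebrum libraries were taken by Pearson's *r*, as a description. For *PTGDS* the top 10 had *r* from 0.88 to 0.91, and 8 have a symbol: *TSPAN9*, *TXNDC5*, *CDC42EP1*, *ISOC2*, *SRP68*, *CREB3L1*, *MTX1* and *GEMIN4*. *TXNDC5*, a protein disulfide isomerase, had 185.2 CPM in RES fetus 1 and 34.1 to 64.5 CPM in the others, and *CREB3L1*, a factor bound to the endoplasmic reticulum, had 7.45 against 0.732 to 4.31. Without fetus 1 the *r* of these 10 was 0.78 to 0.84, and 0 of the 10 stayed among the top 10.

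For *SLC6A20* the top 10 had *r* from 0.86 to 0.88, and 5 have a symbol: *TMEM119*, *FOLR2*, *TPM2*, *MYL4* and *CCN4*. *TMEM119*, a membrane protein of osteoblasts and microglia, had 58.0 CPM in RES fetus 1 and 0.159 to 1.82 CPM in the others. *TPM2*, a tropomyosin, had 91.0 against 3.17 to 13.5, and *FOLR2*, a folate receptor, had 13.1 against 0 to 3.02. Without fetus 1, 2 of the 10 stayed among the top 10, *TMEM119* and a gene without a symbol. In likeness to *PTGDS*, *SLC6A20* ranked 2777 of 15,150 genes, and 10,269 without fetus 1.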

How the data were processed

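RNA-Seq counts of 42 libraries were used. The authors checked reads with FastQC 0.11.8, mapped them with STAR 2.7.3a to the bovine genome ARS-UCD 1.2 with Ensembl release 100, and deposited raw counts per gene; the strand column kept is not given in the sources used here. Symbols came from the study's supplementary tables (5131 of 22,664 genes). *PTGDS*, *SLC6A20* and all lists were chosen with earlier results of these data known. Genes under 1 CPM in at least 80% of libraries were left out. Differences were tested with edgeR 4.0.16 (quasi-likelihood, TMM, sex as covariate, Benjamini-Hochberg over all genes) and with permutations over fetuses (100000 where not exact); DESeq2 1.42.0 was an alternative, as were other scalings, filters, covariates and each fetus left out. log2 CPM used a prior count of 1. Named genes were the members, list genes, the 10 most correlated with each member, and *THBS2*, named after its values were seen. Tissues of a fetus are paired by animal, but deviations from group means correlated weakly over genes within a fetus (median *r* = 0.03, 0.06 and 0.12 for the 3 tissue pairs). On simulated counts edgeR recovered 20% of cerebrum diet changes of 1 log2 unit and 80% of those of 2. R 4.3.3, Python 3.11.15 and scipy 1.17.1 were used. RefSeq sequences were not used here. One gene of the proline handling list is not reported here.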

Additional observations from a re-analysis of the deposited data

Results flagged for a closer look

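Dixon's ratio, the gap between the most extreme library and its neighbour over the range of a group, was computed in 46 groups of 7 fetuses (limit 0.568). It passed in 13. For a single group, chance alone passes about 1 in 20. The 46 groups share libraries, and the genes and lists were chosen with earlier results known. The count of 13 was therefore not set against a chance rate. RES fetus 1 was the extreme library in 11 of the 13. In the RES cerebrum it was the highest for *PTGDS* (0.757) and for *SLC6A20* (0.586), and for the summed lists of meningeal (0.568, equal to the limit at the digits given), interstitial matrix (0.704), pericyte (0.577), endothelial (0.595), microglia and macrophage (0.612) and skin, cartilage and muscle genes (0.777). It was also the highest for prostaglandin enzymes (0.717) and for prostaglandin receptors (0.584), and the lowest for neuron genes (0.698). In the CON cerebrum, fetus 23 was the highest for neuron genes (0.67). In the RES liver, fetus 70 was the lowest for *SLC6A20* (0.606), with no count.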

How the results depend on the processing

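Other tests, scalings, filters and covariates were tried, and each fetus was left out in turn. The replicate block (fetus in place of sex and diet) turned the *SLC6A20* cerebrum minus muscle difference to −0.18 and the *PTGDS* diet by tissue term for cerebrum against liver to −0.23, neither of them called in any fit, and changed no other call. That *PTGDS* term was −0.095 with DESeq2, −0.089 with its size factors and −0.042 with a stricter filter. With library totals the liver relation of *PTGDS* and *SLC6A20* was −0.063, and, as an alternative chosen after seeing the data, *ALDH18A1* turned to 0.079 for the cerebrum minus the liver and 0.81 for muscle minus the liver, and *PTGER3* to 0.36 and 0.46. With totals free of named mitochondrial genes, an alternative chosen after seeing the data, the cerebrum diet difference of *SLC6A20* was 1.74 and passed the adjustment over 6 comparisons (adjusted exact permutation *p* = 0.0315). Without the 2 farthest fetuses, also chosen after seeing the data, 0 relations with cell type lists passed, and *r* turned to 0.23 for *PTGDS* with neurons, −0.18 and −0.11 for *PTGDS* and *SLC6A20* with skin, cartilage and muscle, and −0.63 for *PTGDS* with hepatocytes. DESeq2 called 78 genes for diet in the liver, 14 in muscle, and 9 and 2 for the diet by tissue terms, for the first of which library totals gave 1. The SDs on the variance stabilised scale were 0.703 for *PTGDS* and 0.801 for *SLC6A20*. DESeq2 turned the *PTGER3* cerebrum minus muscle difference to 0.014. Leaving out 1 fetus moved the edgeR diet difference from −0.34 to 1.02 for *PTGDS* in the cerebrum and from −0.15 to 0.24 for *SLC6A20* in muscle, and the *SLC6A20* cerebrum minus muscle difference from −0.52 to 0.51 (paired, −0.52 to 0.0058). The *PTGDS* diet by tissue terms ran from −0.83 to 0.23 against the liver and from −0.44 to 0.78 against muscle, with 0 to 1 genes called for either term, and the *SLC6A20* term against the liver from 0.088 to 1.40. The permutation differences ran from 0.087 to 0.72 for *PTGDS* in the cerebrum and from 0.42 to 0.81 in the liver, and for *SLC6A20* from 1.15 to 1.79 in the cerebrum, 0.68 to 1.23 in the liver and −0.073 to 0.26 in muscle. The adjustment over 6 comparisons was then passed without fetus 52 by *PTGDS* in the liver and *SLC6A20* in the cerebrum, and without fetus 70 by *SLC6A20* in the cerebrum and the liver. The cerebrum relation of the 2 genes ran from −0.21 to 0.54. With all fetuses it was 0.64 on variance stabilised values (permutation *p* = 0.0549) and 0.57 with a prior count of 5 (permutation *p* = 0.0619). The cause of these changes was not tested. *SLC6A20* could not be fitted in the liver after the filter, and the stricter filter dropped it except in muscle. *PTGDS* and *SLC6A20* had 1 to 26 counts in the cerebrum libraries other than RES fetus 1, so these values carry a wide counting error.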

Other observations

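Hepatocyte genes, of a tissue outside the brain, were also counted in cerebrum libraries other than RES fetus 1. They summed to 293.8 CPM in RES fetus 33, 100.7 CPM in CON fetus 2 and 88.3 CPM in RES fetus 25, against 5.11 CPM in CON fetus 69. Genes of the choroid plexus, a tissue of the brain ventricles, summed to between 1016 and 1560 CPM in CON fetuses 23 and 46 and RES fetuses 25 and 52, and to at most 371.3 CPM in the other 9. Outside RES fetus 1, *TTR*, also a hepatocyte product, reached 1384 CPM and *OTX2* at most 157.3 CPM. *PTGDS* in these 4 libraries ran from 1 to 16 counts and *SLC6A20* from 6 to 16 counts.

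The gene with the largest gap between RES fetus 1 and the next highest cerebrum library was *THBS2*, a thrombospondin of connective tissue, with 2098 counts against at most 18. It was named after its values were seen.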
